A study of Mus musculus with 6 samples.

Results

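The 10 secreted matrix genes of mouse fat stroma examined here are the thrombospondins Thbs1, Thbs2, Thbs3 and Comp, the cartilage intermediate layer protein gene Cilp, tenascin-C (Tnc), periostin (Postn), Sparc (osteonectin), Spp1 (osteopontin) and fibronectin (Fn1). They were picked by symbol from a table of 55011 genes, and all 10 symbols were found. The picking was done with earlier results of the same comparison in view, Cilp being already known as a large fall, so each fold change and adjusted p-value below describes where a gene stood in the fit of the whole table and is no independent evidence. Polyadenylated RNA came from cultured stromal cells of mouse visceral fat (labelled VAT, and eWAT in the design text) that lacked the EGFP reporter of Il33 (labelled Il33-EGFP-). One group received PBS (n = 3) and the other 10 nM irisin/HSP90α (n = 3, called irisin here), both for 3 days. Irisin is a circulating fragment of the membrane protein Fndc5, and HSP90α is a chaperone. Whether the PBS wells also received HSP90α, the strain, age and number of mice, and whether replicates were separate cultures are not stated in the labels. The p-values therefore set a group difference against variation that may be only technical, and the calls may not extend to other cultures or mice. The study's question was whether irisin/HSP90α turns adipocyte precursors into stromal cells with immune functions.

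Matricellular proteins are secreted into the extracellular matrix, where they bind collagens, growth factors and cell-surface receptors and tune how cells attach and respond, rather than carrying mechanical load. Fibronectin, in contrast, is a structural glycoprotein that cells pull into fibrils through integrins. In fat, stromal cells are a main source of both, and Sparc and Thbs1 are known for roles in matrix remodelling and in the restraint of fat cell formation. Cilp is best known from cartilage, where it lies in the middle zone, and it binds TGF-β and IGF1.

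With irisin, Cilp fell 7.15-fold, from 282 ± 47.9 to 39.5 ± 4.53 CPM (read counts scaled to library size, mean ± SD, n = 3 per group). Tnc was 1.28-fold higher, a call that several alternatives did not keep. The other 7 members that could be tested did not pass the threshold, among them the 3 most abundant, Sparc, Thbs1 and Fn1. Comp was too low to test, at 1 to 8 counts per library. One tested member was thus called higher and 1 lower, where 4.2% of all 12296 genes tested were called higher and 3.22% lower (912 genes or 7.42% in all, edgeR quasi-likelihood test, adjusted p under 0.05). When total counts replaced TMM factors the split was 422 higher and 602 lower, and among members 0 higher and 1 lower. The median log2 fold change (irisin against PBS) of the 9 was 0.09, beside -0.01 for all genes tested. Groups did not overlap for 4 of the 9, Cilp and Thbs2 with irisin below and Tnc and Sparc with irisin above, where 23.6% of all genes tested had groups that did not overlap. Because the members were chosen from this contrast, nothing is read from these shares.

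The libraries held 5271309 to 6745799 counts, so 1 CPM rested on 5.17 to 6.89 counts. The 10 genes took 1.37% to 1.67% of the counts of a library. Stromal identity was checked on 11 markers, whose summed level was 37860 to 45410 CPM in PBS and 51470 to 56300 CPM in irisin. Most of that sum was collagen RNA (Col3a1, Col1a1 and Col1a2), so it says little about the other markers. In irisin, Pdgfra and Col1a1 were called higher and Thy1 and Lum lower. Mature adipocyte markers (8 genes, Lep at 0 in all 6 libraries) summed to 166 to 269 CPM in PBS and 45.6 to 51.5 CPM in irisin, and smooth muscle and pericyte markers (6 genes) to 128 to 170.2 CPM and 85.0 to 130.1 CPM. Of the latter, Des (73.8 to 33.7 CPM, adjusted p = 7.90e-05, edgeR) and Cspg4 (6.87 to 2.23 CPM, adjusted p = 0.00324) were called lower, while Myh11 and Notch3 did not pass. Endothelial markers (5 genes) summed to 31.1 to 37.7 CPM in PBS and 18.4 to 26.2 CPM in irisin, nearly all of it Tek, which was called lower (adjusted p = 0.0303, edgeR). Mesothelial markers (6 genes) summed to 35.7 to 41.5 CPM in PBS and 42.6 to 51.9 CPM in irisin, nearly all of it Wt1, which did not pass. The part of these markers in any result below was not tested, and in bulk RNA fewer cells of a type and less RNA per cell cannot be told apart. PBS replicate 3 and irisin replicate 1 stood apart from the other 4 libraries on the second principal component, and results that rest on them are given with and without them.

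The members lie on 9 chromosomes of the mouse assembly GRCm38 (mm10), annotated in GENCODE M21 as protein-coding genes. Cilp spans chr9:65265180-65280605 on the plus strand and Tnc chr4:63959785-64047015 on the minus strand. Thbs1 lies at chr2:118111876-118127133, Thbs2 at chr17:14665500-14694235, Thbs3 at chr3:89215180-89226837 and Comp at chr8:70373558-70382066. Postn lies at chr3:54361109-54391037, Sparc at chr11:55394500-55423183, Spp1 at chr5:104435118-104441050 and Fn1 at chr1:71585520-71653200. A count sums a whole gene, so exons, untranslated regions and splice forms, which are many in Fn1 (17 annotated transcripts), were not told apart. Exons of another gene overlap 5 members. Thbs3 shares 318 exon bases with Mtx1 on the opposite strand, a gene with 221 to 277 counts per library beside 195 to 273 for Thbs3, so without a stated strand setting the level of Thbs3 is uncertain. The partners of Thbs1 (Gm29233, 208 bases), Tnc (8030451A03Rik, 176 bases), Fn1 (Apol7d, 292 bases) and Spp1 (Gm42793, 309 bases, same strand) had at most 16 counts in a library.

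The sequences just upstream of the 2 members that were called are shown because they moved in opposite directions. They are the 250 bases before the annotated start, 5′ to 3′ on the gene's strand, from RefSeq on GRCm38.p6, whose table holds 7 of the 10 members (not Thbs1, Fn1 and Comp). Capitals mark matches to TATAAA or TATATAA on either strand, the letters of the TATA box, which places the start of transcription at many tissue-specific genes. The Cilp window is chr9:65264930-65265179 (plus strand) and the Tnc window chr4:64047016-64047265 (minus strand).
Cilp: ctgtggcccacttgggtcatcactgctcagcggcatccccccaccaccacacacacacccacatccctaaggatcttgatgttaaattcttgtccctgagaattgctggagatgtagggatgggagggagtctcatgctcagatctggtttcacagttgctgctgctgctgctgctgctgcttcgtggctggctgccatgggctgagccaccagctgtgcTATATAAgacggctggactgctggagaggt
Tnc: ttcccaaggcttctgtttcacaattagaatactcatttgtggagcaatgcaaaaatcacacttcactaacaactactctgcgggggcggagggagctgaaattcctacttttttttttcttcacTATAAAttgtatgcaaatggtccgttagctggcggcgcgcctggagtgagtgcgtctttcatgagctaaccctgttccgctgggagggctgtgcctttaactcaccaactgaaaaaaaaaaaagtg
The Cilp window held TATATAA from 30 to 24 bases before the start, and no TATAAA. The Tnc window held TATAAA from 126 to 121 bases before its start, and the window of a second RefSeq start of Tnc held TATATAA from 29 to 23 bases before that start. TATATAA, a motif added after the windows had been read, occurred in 3.04% of all 32851 promoter windows of this length and TATAAA in 12.4%, and the 2 patterns can overlap by 5 bases. TATAAA was also in windows of Thbs2, Spp1 and Postn. Postn, whose level did not pass the test, held TATATAA from 28 to 22 bases before one of its starts, overlapping TATAAA from 26 to 21. The AP-1 motif TGANTCA (6.75% of windows) occurred in none of the members' windows. The NF-κB consensus (7.25% of windows) occurred only in that of Thbs2, where 1 site read on both strands. Both were searched on both strands. These matches describe letters in a window, and no match says nothing about a factor.

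Cilp had 1237 to 2196 counts in the PBS libraries and 219 to 256 in the irisin libraries. Its level was 319, 299 and 228 CPM in PBS replicates 1, 2 and 3, and 41.0, 43.1 and 34.4 CPM in irisin replicates 1, 2 and 3. The groups lay far apart, with the lowest PBS library above every irisin library, and PBS replicate 3 was the lowest of its group. The log2 fold change was -2.84 ± 0.14 (SE, 95% interval -3.14 to -2.54, adjusted p = 8.30e-08, edgeR), the 9th most negative of the 12296. In all 14 alternatives Cilp was lower and called, with values from -3.00 to -2.74. Without PBS replicate 3 and irisin replicate 1 it was -3.00 ± 0.09. The cartilage and tendon markers Acan, Col2a1, Col9a1, Tnmd, Scx, Mkx and Chad averaged under 1 CPM in both groups (Chad at 0 in all 6 libraries), while Sox9, a transcription factor of cartilage that stroma also expresses, averaged 68.2 and 87.7 CPM and did not pass. The relative Cilp2 was at 0.184 to 0.628 CPM and was not tested.

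**Figure D1:**
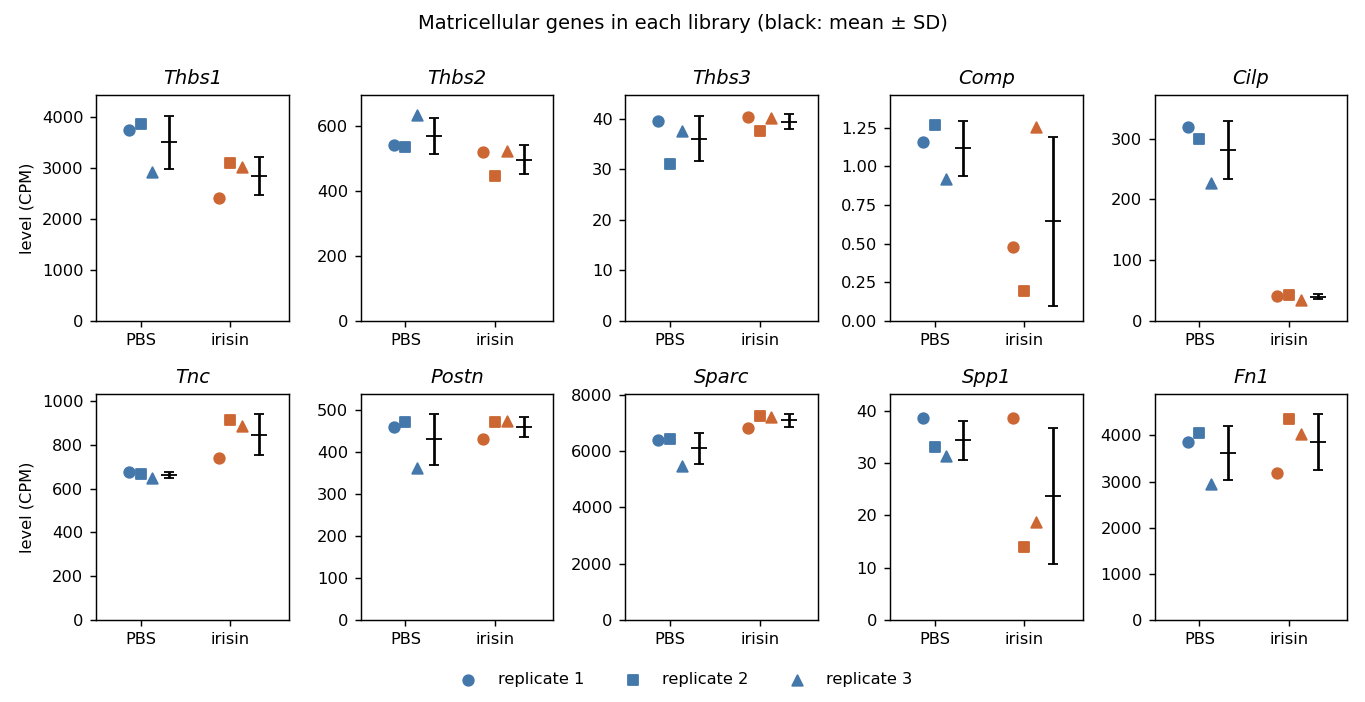
Level in CPM (vertical axis from 0) of each of the 10 genes in the 3 PBS and 3 irisin libraries, with 1 symbol per replicate number and the mean ± SD in black. Cilp drops from 228 to 319 CPM in PBS to 34.4 to 43.1 CPM in irisin, whereas most other genes keep overlapping groups.

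Tenascin-C is a large glycoprotein with several arms that appears in injured and inflamed tissue and can be sensed by Toll-like receptor 4. Tnc stood at 677, 665 and 649.7 CPM in PBS replicates 1, 2 and 3. In irisin it stood at 741, 916 and 887 CPM in replicates 1, 2 and 3. All irisin libraries were above all PBS libraries, which differed little among themselves, and irisin replicate 1 was the one nearest to PBS. The means were 664 ± 13.8 and 848 ± 93.7 CPM, and the log2 fold change was 0.35 ± 0.09 (95% interval 0.15 to 0.55, adjusted p = 0.0359, edgeR). The value stayed positive in every one of the 14 alternatives (0.27 to 0.44), while the call was kept in 8. Among those 8 is the fit without PBS replicate 3 and irisin replicate 1, which was added after the data had been seen. It was lost with libraries scaled by total counts alone (adjusted p = 0.0961) and with the replicate number as a block in the fit (0.113). Leaving out PBS replicate 1 (0.111) or 2 (0.108), or irisin replicate 2 (0.213) or 3 (0.172), lost it too.

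The thrombospondins are multimeric glycoproteins that bind calcium. Thbs1 and Thbs2 form trimers with repeats that bind the receptor CD36, and Thbs1 can activate latent TGF-β. Thbs3 and Comp form pentamers and lack those repeats.

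Thbs1 stood at 3739, 3861 and 2911 CPM in PBS and at 2403, 3096 and 3018 CPM in irisin, in replicate order. The groups overlapped through PBS replicate 3, the lowest of its group, while irisin replicate 1 was the lowest of all 6 libraries. The means were 3503 ± 517 and 2839 ± 379.7 CPM (log2 fold change -0.30 ± 0.13, 95% interval -0.58 to -0.03, adjusted p = 0.212, edgeR), so the difference did not pass. Thbs1 passed as lower without PBS replicate 3 (log2 fold change -0.42, adjusted p = 0.0112), with limma-voom (0.0454) and with no low-count filter (0.00516). Without both libraries that stood apart its value was -0.31 ± 0.04 (adjusted p = 4.76e-07), a fit added once the data had been seen, which keeps the closest pair of each group and so favours calls.

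Thbs2 stood at 539.9, 535 and 634 CPM in PBS and at 520.4, 445 and 522 CPM in irisin. All 3 irisin values were below the PBS values, by a margin that was small beside the spread. Its log2 fold change was -0.20 ± 0.10 (95% interval -0.41 to 0.01, adjusted p = 0.308, edgeR), and it passed in none of the 14 alternatives. PBS replicate 3 was the highest library for Thbs2 and the lowest of the PBS group for Thbs1. Thbs3 stood at 39.6, 31.1 and 37.6 CPM in PBS and at 40.3, 37.7 and 40.2 CPM in irisin, with overlapping groups (log2 fold change 0.13 ± 0.12, adjusted p = 0.684, edgeR). Comp, the cartilage oligomeric matrix protein, had 8, 8 and 5 counts in PBS and 3, 1 and 8 counts in irisin, and no difference could be assessed at this depth.

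Sparc, a collagen-binding glycoprotein, was the most abundant member. It stood at 6399.9, 6452 and 5458 CPM in PBS and at 6813, 7238 and 7235 CPM in irisin. All irisin values were above all PBS values, with a gap that was smaller than the range within PBS. The log2 fold change was 0.22 ± 0.09 (95% interval 0.02 to 0.42, adjusted p = 0.220, edgeR) and did not pass. It passed only without both PBS replicate 3 and irisin replicate 1 (0.17 ± 0.04, adjusted p = 0.00102).

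Postn, which helps collagen fibrils to form and crosslink, stood at 460.2, 471 and 361 CPM in PBS and at 431, 470.4 and 475 CPM in irisin. The groups overlapped, and PBS replicate 3 was again the lowest (log2 fold change 0.09 ± 0.10, 95% interval -0.13 to 0.32, adjusted p = 0.745, edgeR). Fn1 stood at 3861, 4053 and 2949 CPM in PBS and at 3187, 4352 and 4025 CPM in irisin. Here too the groups overlapped, with PBS replicate 3 and irisin replicate 1 below the other 4 libraries (log2 fold change 0.09 ± 0.14, 95% interval -0.22 to 0.40, adjusted p = 0.828, edgeR). These intervals leave room for changes of either sign. Without PBS replicate 3 the values turned to -0.017 for Postn and -0.035 for Fn1, neither of them past the threshold, and without irisin replicate 2 that of Fn1 was -0.0056.

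Osteopontin is a phosphoprotein of bone and of activated macrophages that binds integrins and CD44. Spp1 stood at 38.6, 33.1 and 31.3 CPM in PBS, and at 38.6, 13.9 and 18.7 CPM in irisin. Irisin replicates 2 and 3 were below every PBS library, while irisin replicate 1, with 241 counts, was level with the highest. The log2 fold change was -0.52 ± 0.35 (95% interval -1.37 to 0.33, adjusted p = 0.542, edgeR) and did not pass. Without irisin replicate 1 it was -1.07 ± 0.18 (adjusted p = 0.00251), and without PBS replicate 3 as well -1.12 ± 0.16 (adjusted p = 2.21e-06). With limma-voom, which gives libraries unequal weights, it was -0.86 ± 0.24 (adjusted p = 0.0395). Macrophage markers (11 genes, Cd163 and C1qa at 0 in all 6 libraries) summed to 66.9 to 83.0 CPM in PBS and 62.6 to 87.0 CPM in irisin. Most of that sum was Csf1r (means of 59.7 and 59.2 CPM), and Adgre1, Ptprc and Mrc1 averaged under 1 CPM. In irisin replicate 1 the sum was 66.9 CPM, between those of the other irisin libraries.

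**Figure D2:**
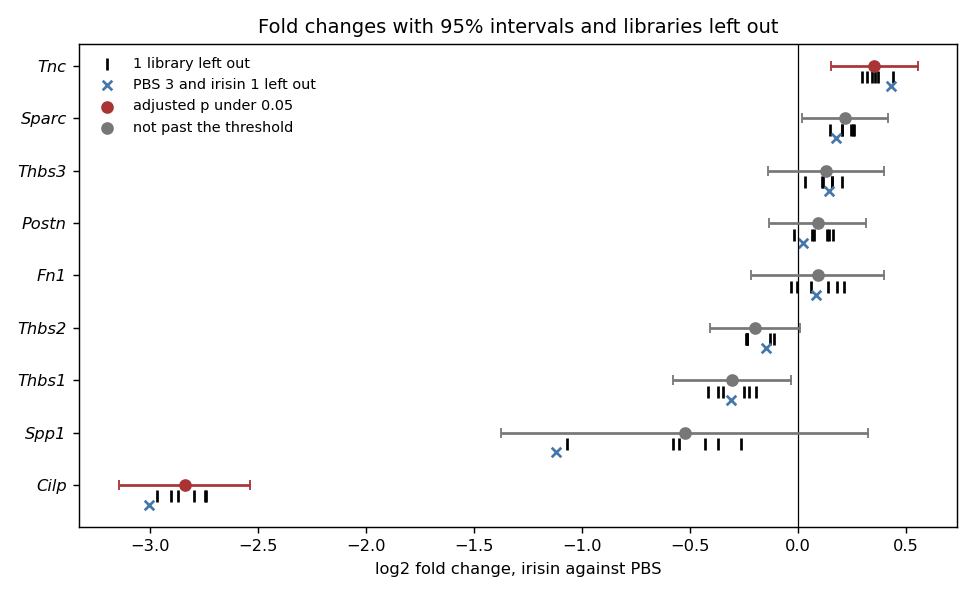
Log2 fold change of the 9 tested genes (horizontal axis, irisin against PBS) with 95% intervals, red where adjusted p was under 0.05, black ticks for fits with 1 library left out and blue crosses for the fit without PBS replicate 3 and irisin replicate 1. Cilp stays between -3.00 and -2.74 over all 14 alternatives, and Spp1 moves from -0.52 to -1.07 when irisin replicate 1 is left out.

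In the libraries that stood apart, several members deviated in the same direction from the rest of their group. These libraries were picked because they deviated over the whole table. The spread of such ratios over all genes was not computed, so whether the members differ from other genes here cannot be said. In PBS replicate 3, relative to the mean of PBS replicates 1 and 2, the log2 ratio was -0.42 for Fn1, -0.38 for Thbs1, -0.37 for Postn, -0.24 for Sparc and -0.44 for Cilp, but 0.24 for Thbs2. In irisin replicate 1, relative to irisin replicates 2 and 3, it was -0.39 for Fn1, -0.35 for Thbs1 and -0.28 for Tnc, but 0.08 for Cilp and 1.22 for Spp1. Over all genes tested the median ratio was -0.01 in PBS replicate 3 and near 0 in irisin replicate 1. By the length of a gene's longest annotated transcript, the median over genes ran from 0.06 and 0.05 in the shortest quintile (up to 1972 bases) to -0.10 and -0.12 in the longest (from 5305 bases). Fn1 (8315 bases), Tnc (7106 bases), Thbs2 (5895 bases) and Thbs1 (5848 bases) belong to the longest quintile, and Thbs2 did not share the lower level there. The part of transcript length in these members' values was not tested.

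**Figure D3:**
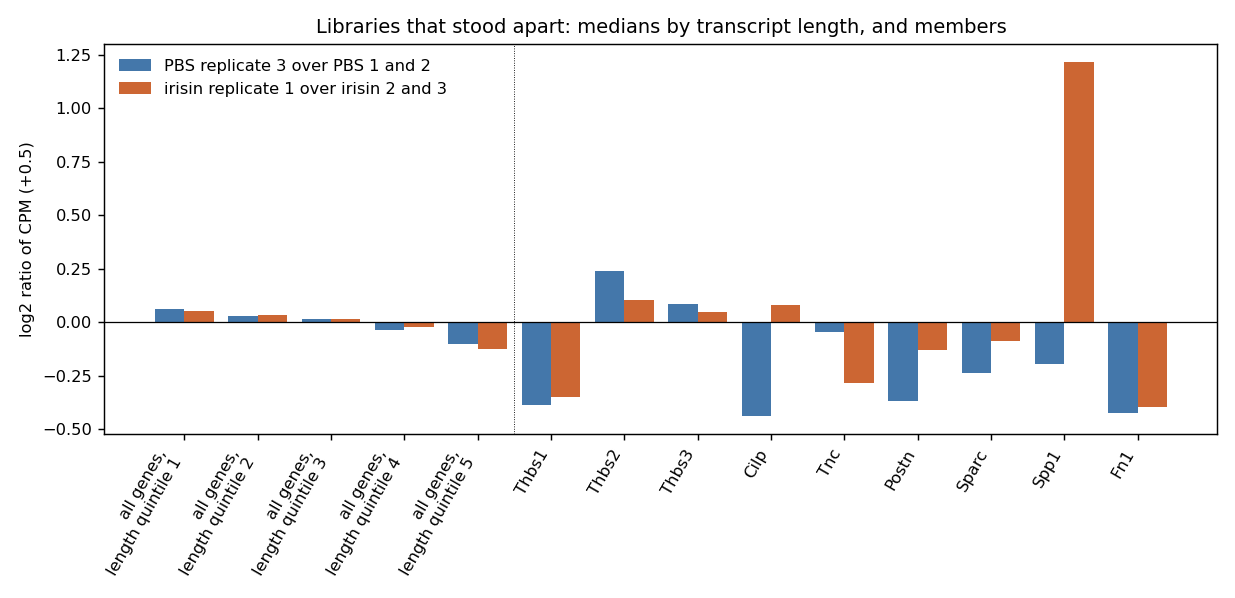
Log2 ratio of CPM (0.5 added) in PBS replicate 3 over PBS replicates 1 and 2 (blue) and in irisin replicate 1 over irisin replicates 2 and 3 (orange), as medians over all genes in quintiles of transcript length on the left and for each tested member on the right. Thbs1 and Fn1 are lower in both libraries by more than the median of the longest quintile (-0.10 and -0.12), while Thbs2 is higher in both.

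Levels between members were compared per kilobase of annotated exon (CPM per kilobase). Sparc led in PBS with 1611 ± 147.7, followed by Thbs1 (577 ± 85.2), Fn1 (309.9 ± 50.5), Tnc (85.4 ± 1.77), Thbs2 (81.3 ± 7.96), Cilp (66.3 ± 11.3), Postn (49.5 ± 6.96), Spp1 (20.8 ± 2.31), Thbs3 (7.48 ± 0.927) and Comp (0.376 ± 0.0599), all in CPM per kilobase. Tnc with Thbs2 and Cilp with Postn were the neighbouring pairs whose libraries overlapped in PBS. In irisin the order was the same down to Thbs2, and then Postn (52.7 ± 2.77 CPM per kilobase), Spp1 (14.4 ± 7.93), Cilp (9.29 ± 1.07), Thbs3 (8.17 ± 0.310) and Comp (0.217 ± 0.186) followed. Cilp moved from the 6th to the 8th place and then overlapped with both Spp1 and Thbs3, whereas Tnc and Thbs2 no longer overlapped.

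**Figure D4:**
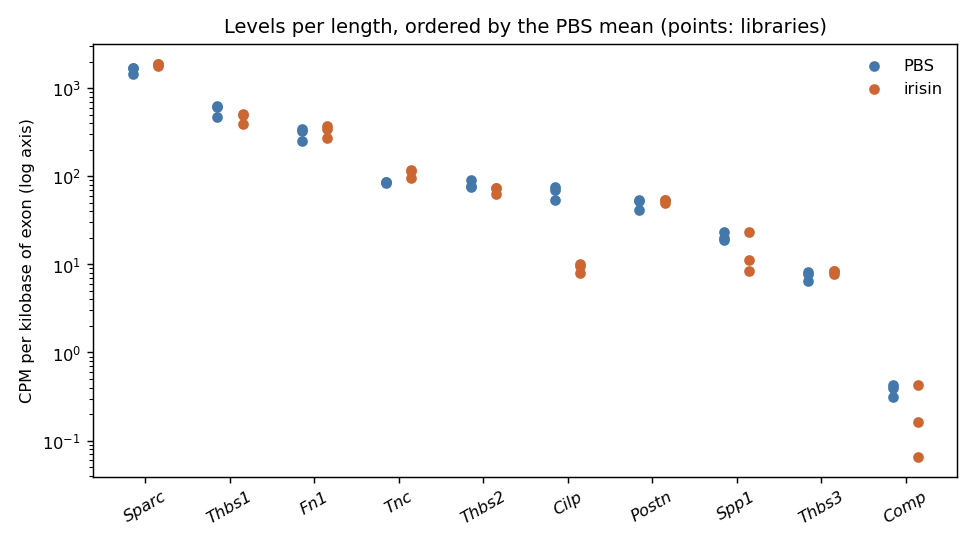
Level per kilobase of exon (CPM per kilobase, log axis) of the 10 genes in each PBS (blue) and irisin (orange) library, ordered by the PBS mean. Sparc, Thbs1 and Fn1 lead in both groups, and Cilp falls from a range that overlaps that of Postn to one that overlaps those of Spp1 and Thbs3.

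Among the other matricellular genes listed, more were called lower than higher. This list and those below were drawn up with earlier results of these data known, so nothing is read from their shares beside all genes. Of 30 listed relatives 16 could be tested, of which 6 were called lower and 1 higher (median log2 fold change -0.22), where 3.22% and 4.2% of all genes tested were called. Sparcl1, the closest relative of Sparc, fell from 101 ± 11.9 to 38.3 ± 6.56 CPM (log2 fold change -1.40 ± 0.14, adjusted p = 1.94e-05, edgeR). Tgfbi, a collagen-binding protein induced by TGF-β, fell from 43.9 ± 3.46 to 21.97 ± 3.93 CPM (adjusted p = 0.000647). The abundant Ccn1 (-0.40 ± 0.08, adjusted p = 0.00832) and its relative Ccn2 (-0.43 ± 0.11, adjusted p = 0.0300), both targets of mechanical signalling, fell by less. So did the adhesion protein vitronectin, Vtn (-0.79 ± 0.18, adjusted p = 0.0157), and the Sparc relative Smoc1 (-0.55 ± 0.14, adjusted p = 0.0345), the latter named after its value was seen. The gene that rose was Matn2, a matrilin of connective tissue (0.37 ± 0.10, adjusted p = 0.0467). The calls of Sparcl1 and Tgfbi were kept in all 14 alternatives, those of Ccn1 and Vtn in 11, Smoc1 in 9, Ccn2 in 8 and Matn2 in 5. With a single library omitted the list held 2 to 7 falls, among them 3 with PBS 1 or irisin 3 omitted and 2 with irisin 2 omitted. It held 0 rises when PBS 1, PBS 2 or any irisin library was omitted and 2 when PBS 3 was. Ccn2 shares 665 exon bases with an antisense transcript and Matn2 70 with a gene on the other strand.

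Receptors for the members went both ways. Of 21 listed, 18 were tested, 3 were called lower and 2 higher, and 13 did not pass (median log2 fold change 0.09). That is 16.7% lower and 11.1% higher, beside 3.22% and 4.2% of all genes tested. Cd36, a receptor for thrombospondins that also carries fatty acids into fat cells, fell most, from 166 ± 16.8 to 42.1 ± 3.03 CPM (-1.97 ± 0.11, adjusted p = 1.39e-07, edgeR). Mature adipocyte markers moved with it: of 8, 6 could be tested and 5 of those were called lower, a part in the fall of Cd36 that was not tested. The integrin subunit Itgb3, which pairs with αv to bind osteopontin, vitronectin and fibronectin, fell from 11.8 ± 1.02 to 5.25 ± 0.529 CPM (adjusted p = 0.00248). Itgb1, shared by the fibronectin receptors, fell from 621 ± 91.3 to 434 ± 67.9 CPM (-0.52 ± 0.13, adjusted p = 0.0308). Stab1, a scavenger receptor that takes up Sparc, rose at a low level from 1.28 ± 0.171 to 6.44 ± 0.732 CPM (adjusted p = 0.000298), and Itgb8, an αv partner that binds latent TGF-β, from 2.05 ± 1.32 to 6.56 ± 2.03 CPM (adjusted p = 0.0387). Stab1 shares 112 exon bases with Nt5dc2 on the other strand. With PBS 2 or any single irisin library omitted, 1 receptor was called higher, and with PBS 3 omitted, 4. Itgb8 did not pass when PBS 2 (adjusted p = 0.0848), irisin 1 (0.0643), irisin 2 (0.178) or irisin 3 (0.0646) was omitted. Itgb1 did not pass when PBS 1 (0.135), PBS 2 (0.1003), irisin 1 (0.102) or irisin 2 (0.139) was omitted, nor when PBS 3 and irisin 1 both were (0.0857). With the replicate block Itgb1 did not pass either (adjusted p = 0.107, edgeR). The chief fibronectin receptor subunit Itga5 (log2 fold change 0.07 ± 0.10, adjusted p = 0.797) and the osteopontin receptor Cd44 (0.26 ± 0.10, adjusted p = 0.171) did not pass, the pair being named after their values were seen.

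Genes listed for matrix assembly and cleavage, of collagen as well as of the members, held 5 rises and 3 falls among 19 tested (20 listed, median log2 fold change 0.07). These are 26.3% and 15.8% of the list, where 4.2% of all genes tested were called higher and 3.22% lower. Adamts7, a protease that cleaves Comp, rose from 16.0 ± 3.46 to 70.5 ± 11.4 CPM (2.13 ± 0.17, adjusted p = 3.26e-06, edgeR). Comp itself was barely detected here. Mmp9, a gelatinase, had 1 to 9 counts in each PBS library and 29 to 38 in each of the irisin libraries, and was called higher (log2 fold change 2.91 ± 0.50, adjusted p = 0.00238). Its value rests on few PBS counts and ran from 2.38 to 4.09 over the 13 alternatives that held it, each called higher. It was 4.09 with PBS 3 omitted, 3.996 with PBS 3 and irisin 1 both omitted and 3.64 with limma-voom. Bmp1, a procollagen protease (0.57 ± 0.13, adjusted p = 0.0161), Fkbp10, a collagen chaperone (0.35 ± 0.08, adjusted p = 0.0121), and Lox, the lysyl oxidase that crosslinks collagen (0.33 ± 0.09, adjusted p = 0.0391), also rose. The falls were Plau, the urokinase (127 ± 34.3 to 49.2 ± 5.46 CPM, adjusted p = 0.00138), Adamts1, which releases parts of thrombospondins (-0.44 ± 0.08, adjusted p = 0.00421), and Mmp2 (-0.37 ± 0.09, adjusted p = 0.0200). The list held 3 rises with PBS 2 omitted, 2 with irisin 2 or irisin 3 omitted, and 5 falls with PBS 3 omitted. Lox did not pass when any single library other than PBS 3 was omitted (adjusted p 0.1106 to 0.185) nor with total counts alone (0.129). Fkbp10 did not pass with PBS 2, irisin 2 or irisin 3 omitted (0.0530 to 0.0850), nor Bmp1 with irisin 2 or irisin 3 omitted (0.0806 to 0.0814). Mmp2 did not pass with PBS 1, PBS 2, irisin 1 or irisin 2 omitted (0.0758 to 0.129). Lox, Fkbp10 and Mmp2 also did not pass with the replicate block. Exons of a gene on the other strand overlap Adamts7 (122 bases), Fkbp10 (193 bases) and Lox (30 bases).

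Thrombospondin 1, Cilp and fibronectin all bind or act on TGF-β, so its ligands and response genes were counted as well. Of 25 tested (26 listed), 4 were called lower and 1 higher (median log2 fold change near 0, at -0.005). The share called lower was 16% beside 3.22% of all genes tested, and the share called higher, 4%, was near the 4.2% of all genes. Ltbp1, which tethers latent TGF-β to fibronectin in the matrix, fell from 766 ± 91.0 to 409 ± 35.9 CPM (-0.90 ± 0.10, adjusted p = 7.78e-05, edgeR). The ligand Tgfb3 fell from 92.3 ± 5.18 to 53.0 ± 4.75 CPM (adjusted p = 0.000253). Tgfbi and Ccn2 are also on this list. The rise was Col1a1, a chain of collagen I, from 8249 ± 1266 to 11586 ± 476 CPM (0.49 ± 0.11, adjusted p = 0.0155). It did not pass with irisin 2 (adjusted p = 0.0985) or irisin 3 (0.0725) omitted, when the list held 0 rises. With PBS 3 omitted the list held 3 rises, and with irisin 1 omitted 4. Tgfb3 shares 163 and 257 exon bases with a pair of transcripts on the other strand. Cilp's other ligand gene, Igf1, did not pass (0.25 ± 0.09, adjusted p = 0.143).

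**Figure D5:**
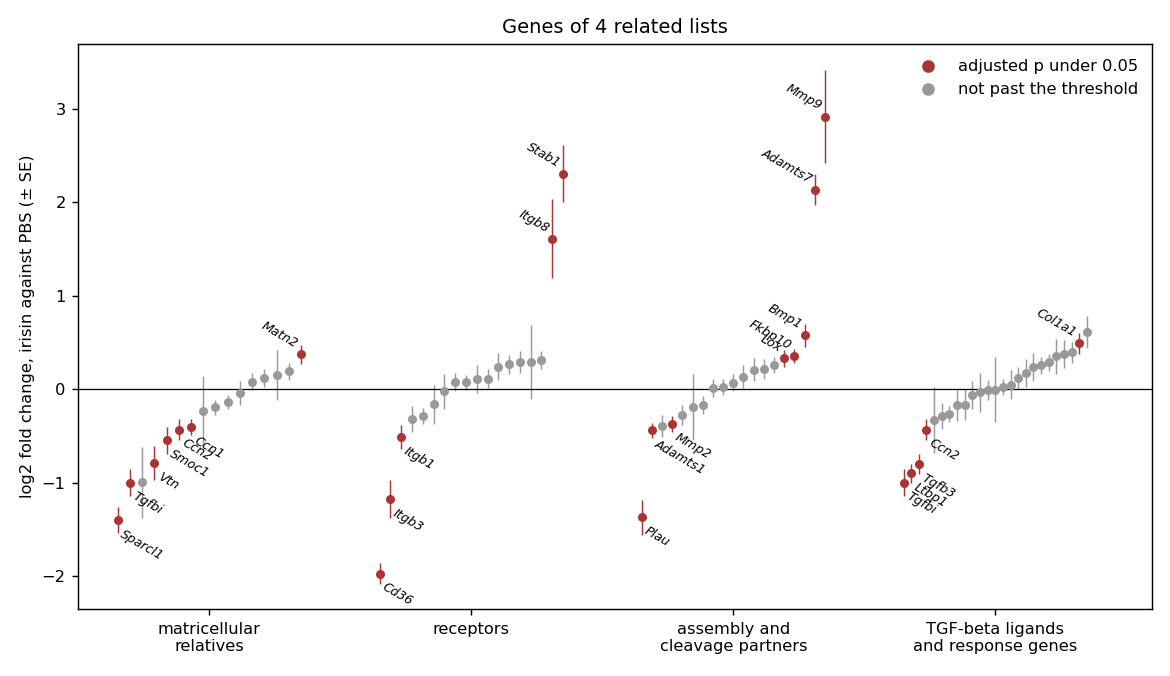
Log2 fold change (vertical axis, irisin against PBS, ± SE) of the tested genes of 4 related lists, ordered within each list, red with the gene's name where adjusted p was under 0.05. The matricellular relatives hold 6 falls and 1 rise, and the largest changes are the fall of Cd36 (-1.97) and the rises of Stab1 (2.30), Adamts7 (2.13) and Mmp9 (2.91, and 2.38 to 4.09 over the alternatives).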

How the data were processed

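RNA of 6 libraries was counted per gene. STAR 2.7.3a, featureCounts and mm10 are named, per the submitters' processing notes, with no strand setting, annotation release or multi-mapping rule. Counts are whole numbers, deposited by the authors without normalization, and each column was matched to the sample with the same title.

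With edgeR 4.0.16 (R 4.3.3), TMM factors were computed (0.969 to 1.03), filterByExpr at a count minimum of 10 kept 12296 genes, and irisin was tested against PBS by robust quasi-likelihood, adjusted by Benjamini-Hochberg over all genes at a threshold of 0.05. CPM divides counts by the TMM-scaled sum of tested genes, SE is the log2 fold change over the root of F, and intervals are at 95%. Positions and lengths came from GENCODE M21.

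The members and lists were chosen with earlier results of these data known. Named genes were all 10 members, the 4 of lowest p per list, and all called ones where a direction held 5 or fewer. The alternatives were RLE factors, total counts, DESeq2 1.42.0, limma-voom (limma 3.58.1), no filter, a minimum of 50, the replicate block, an adjusted p of 0.10 and single libraries omitted. A fit omitting both PBS 3 and irisin 1 was added after seeing the data. The 14 alternatives of a single gene include this added fit and leave out the adjusted p of 0.10.

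On simulated data for irisin against PBS (200 of 12122 genes changed), 48% of genes changed 1.5-fold, 66% at 2-fold and 94% at both 4-fold and 8-fold were recovered, and 5 of 156 calls were unchanged genes. The simulation drew each gene independently, with no library standing apart from its group, so these shares may not hold for the real libraries. Libraries of one group differed by a chi-square per degree of freedom of 2.71 to 14.6, so none repeated another. Protein motifs were planned and not analysed here.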

Additional observations from a re-analysis of the deposited data

How the results depend on the processing

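The fall of Cilp kept its direction and its call in all 14 alternatives, and Thbs2, Thbs3, Postn and Fn1 passed in none of theirs. Tnc kept its direction in all and lost its call in 6: with total counts alone (log2 fold change 0.27), with the replicate block, and when PBS 1, PBS 2, irisin 2 or irisin 3 was omitted (0.29 to 0.44 over the fits without 1 library). Thbs1 passed as lower with limma-voom (-0.33), with no low-count filter (-0.32) and without PBS replicate 3 (from -0.42 to -0.20 over the fits without 1 library). Spp1 passed as lower with limma-voom (-0.86) and without irisin replicate 1 (-1.07 to -0.27 over these fits). Fn1 ran from -0.035 to 0.21, Postn from -0.017 to 0.16 and Sparc from 0.15 to 0.26 over the fits without 1 library. Values reversed sign in Postn without PBS replicate 3 (-0.017) and in Fn1 without PBS replicate 3 (-0.035) or irisin replicate 2 (-0.0056).

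Members called higher numbered 0 with total counts alone or the replicate block and 0 to 1 over the fits without 1 library. Members called lower numbered 3 with limma-voom, 2 with no low-count filter and 1 to 2 over the fits without 1 library. All genes called lower numbered 602 with total counts alone, where the median over all genes went from -0.01 to -0.09. Over the fits without 1 library, 336 to 705 genes were called higher and 238 to 585 lower.

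Without PBS replicate 3 and irisin replicate 1 together, 892 genes were called higher and 788 lower, and among members 2 higher (Tnc and Sparc, the latter at 0.17) and 3 lower (Cilp, Spp1 at -1.12 and Thbs1 at -0.31). In the same fit the relatives called higher numbered 3 and lower 9, the receptors called higher 5, the assembly and cleavage genes called lower 6 and the TGF-β genes called higher 6.

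Relatives called higher numbered 0 with total counts alone, DESeq2, no low-count filter or the replicate block, and 0 to 2 over the fits without 1 library. Relatives called lower numbered 3 with the block and 2 to 7 over those fits. Receptors called higher numbered 0 with a count minimum of 50, a filter that left Stab1 and Itgb8 untested, and 1 to 4 over those fits. Assembly and cleavage genes called higher numbered 3 with the block and 2 to 6 over those fits, and those called lower numbered 5 with limma-voom and 2 to 5 over those fits. TGF-β genes called higher numbered 3 with DESeq2, 4 with limma-voom, 5 with no low-count filter, 4 at an adjusted p of 0.10, and 0 to 4 over those fits. Apart from that filter and the looser threshold of 0.10, the cause of these moves was not tested.

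Same-numbered libraries did not deviate together (correlations of -0.26, 0.20 and -0.20). The highest correlation, 0.40, was that of PBS replicate 3 with irisin replicate 1, the libraries that stood apart. With 3 libraries per group these values cannot show whether a replicate number marks a shared culture or mouse. With the replicate block Tnc was at 0.35 (adjusted p = 0.113) and not called, and Cilp was at -2.83 and called. With the longest transcript as length, Thbs2 ranked above Tnc and Postn above Cilp in PBS, and Postn above Thbs2 and Thbs3 above Cilp in irisin. The counts of Comp (1 to 8) limit what depth can show.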
